A study of Mus musculus with 7 samples.

Results

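Kidneys from mice with diabetes that drank an SGLT2 inhibitor, the DM+SGLT2i group, were compared with kidneys from nondiabetic controls. The members are the 2 libraries whose condition label is type 1 diabetes with glycemic control and the 3 libraries labelled as control, 5 of the 7 libraries of the series. All 17537 listed genes were described, of which 13976 had at least 1 CPM in at least 2 of the 7 libraries and were tested. CPM are reads scaled to library size with TMM factors, a correction for differences in library composition. All mice were C57BL/6 and, per the labels, male and 8 to 10 weeks old at the start of the 22 weeks. DM+SGLT2i mice received streptozotocin, a toxin of the insulin-producing beta cells, intraperitoneally at 60 mg/kg on 5 successive days, and took dapagliflozin (25 mg/kg) with their water over the last 6 of 22 weeks, from week 16 on. Control mice were age-matched, received sodium citrate in place of streptozotocin and were given no inhibitor. The 2 remaining libraries, from diabetic mice without the inhibitor (DM-22), only helped to estimate the spread. Each library was made from polyA RNA of whole renal tissue. The comparison holds streptozotocin, the diabetes that followed and dapagliflozin in 1 group, so that their parts cannot be told apart here. It asks which kidney genes differ from nondiabetic controls after the 6 weeks of inhibitor, and not whether a difference was there before.

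SGLT2, encoded by Slc5a2, takes filtered glucose back from the urine in the early proximal tubule, and SGLT1, encoded by Slc5a1, takes up what is left further downstream. Dapagliflozin blocks the SGLT2 protein, so that glucose leaves with the urine. The nephron runs from the glomerulus with its podocytes through the proximal tubule, the thin and thick limbs of Henle's loop and the distal convoluted tubule to the collecting duct with its principal and intercalated cells, and each segment has transporters of its own. Cdkn1a encodes p21, an inhibitor of cyclin-dependent kinases that p53 induces and that holds cells out of division.

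The 5 libraries held between 46456125 and 56541594 reads on listed genes. Transcripts of podocytes (Nphs1), the proximal tubule (Slc34a1, Lrp2), the thick ascending limb (Umod, Slc12a1) and the collecting duct (Aqp2) were read in all 5 libraries, as were 4 Y-linked genes. Control 2 stood apart from the other controls. Across the 13976 tested genes, 2187 differed by more than 1 on the log2 scale between controls 2 and 8 and 2102 between controls 2 and 9, but only 145 between controls 8 and 9. By the same count, 298 genes separated control 2 from DM+SGLT2i 2 and 689 separated it from DM+SGLT2i 1, and 292 separated the 2 DM+SGLT2i libraries from each other. Control 2 was thus nearer to both DM+SGLT2i libraries than to the other controls, and whether its label is right cannot be settled from these values, so it was kept as labelled. No pair of libraries agreed within sampling noise, and all 5 were kept as separate samples. For that reason results are given against all 3 controls and against controls 8 and 9 alone. The p-values measure the spread between these libraries.

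Against all 3 controls, no gene passed an adjusted p of 0.05 in either direction (limma, Benjamini-Hochberg, lowest adjusted p = 0.9997). At an unadjusted p under 0.05, 93 genes (0.665%) were higher and 58 (0.415%) were lower in DM+SGLT2i, 1.08% in all, and limma with precision weights from the reads (voom) also gave 0 adjusted calls. Against controls 8 and 9, 15 genes (0.107%) rose and 2 (0.0143%) fell at the adjusted threshold, and 1220 (8.73%) and 1278 (9.14%) passed the unadjusted one. With the DM-22 libraries left out of the fit, 949 genes (6.79%) were higher and 680 (4.87%) were lower than in controls 8 and 9 at the adjusted threshold, so the number of calls depended on whose spread was used. Control 2 lay on the same side of controls 8 and 9 as DM+SGLT2i for all 17 called genes, and it reached the DM+SGLT2i range for 11 of the 15 that rose and 1 of the 2 that fell. Of the 3936 genes with both DM+SGLT2i libraries above controls 8 and 9 (28.2%), control 2 was above them too in 90.5%, and of the 4686 below (33.5%), it was below in 91.7%. Together these made up 61.7% of the tested genes.

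The largest of the called differences was that of Cdkn1a (chr17:29090976-29100727, positions of the GENCODE M21 annotation of GRCm38 throughout). Its level was 72.7 CPM in control 2, 4.63 in control 8 and 5.36 in control 9, against 78.6 and 77.3 CPM in DM+SGLT2i 1 and 2. The 2 DM+SGLT2i libraries were thus above every control, but control 2 lay just below them and far above its own group. Against controls 8 and 9, Cdkn1a rose 15.6-fold in mean level, from 5.00 ± 0.517 to 78.0 ± 0.901 CPM (SD, n = 2 each), a log2 difference of 3.84 ± 0.38 (SE) with an adjusted p of 0.049 in limma. Against all 3 controls the log2 difference was 2.59 ± 1.13 and did not pass the test. The call against controls 8 and 9 was close to the threshold. It held in 5 of 11 alternative settings, with limma adjusted p-values from 0.00042 to 0.086. Fits that left out a single library are not among the 11.

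A pair of further p53 targets rose with it. Phlda3 (chr1:135766119-135769136), whose product restrains the Akt kinase, was at 5.18 and 4.81 CPM in controls 8 and 9 and at 27.0 and 26.0 CPM in DM+SGLT2i, with control 2 above both at 31.6 CPM. Its log2 difference from controls 8 and 9 was 2.30 ± 0.13 (limma adjusted p = 0.018), and 1.45 ± 0.75 from all 3 controls. Eda2r (chrX:97333840-97377216), the receptor of ectodysplasin A2, was at 1.07 and 0.876 CPM in controls 8 and 9 against 10.2 and 6.76 CPM in DM+SGLT2i, and at 9.40 CPM in control 2. The log2 difference from controls 8 and 9 was 2.58 ± 0.25 (limma adjusted p = 0.049, held in 5 of 11 alternative settings), and from all 3 controls it was 1.66 ± 0.83.

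Another pair of called genes encodes aldehyde dehydrogenases of the Aldh1a family. Aldh1a1 makes retinoic acid from retinaldehyde and clears other aldehydes. Aldh1a1 (chr19:20492715-20643465) was at 12.3 and 12.4 CPM in controls 8 and 9 and at 92.2 and 93.2 CPM in DM+SGLT2i, while control 2 reached 88.5 CPM. The neighbouring Aldh1a7 (chr19:20692953-20727562) was at 19.4 and 19.2 CPM in controls 8 and 9, at 94.1 and 90.4 CPM in DM+SGLT2i and at 59.7 CPM in control 2. For both genes the DM+SGLT2i libraries lay above all 3 controls. The log2 differences from controls 8 and 9 were 2.86 ± 0.14 for Aldh1a1 and 2.23 ± 0.14 for Aldh1a7 (limma adjusted p = 0.018 and 0.026), and from all 3 controls 1.93 ± 0.82 and 1.69 ± 0.49. Aldh1a7 is a close copy of Aldh1a1, and reads shared by the pair could be divided between them. The other detoxification gene among the calls was the glutathione transferase Gsta1 (chr9:78230656-78242684), at 73.6 and 83.4 CPM in controls 8 and 9, 323 and 306 CPM in DM+SGLT2i and 393 CPM in control 2, and it too has close copies. Its log2 differences were 2.00 ± 0.18 against controls 8 and 9 and 1.22 ± 0.69 against all 3.

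Genes of macrophages made up the largest group of calls. C1qa (chr4:136895917-136898803), a chain of the first complement component, was at 13.7 CPM in controls 8 and 9 alike and at 37.3 and 42.1 CPM in DM+SGLT2i. Ctss (chr3:95526786-95556403), a lysosomal protease of antigen-presenting cells, was at 13.8 and 13.6 CPM against 33.1 and 39.3 CPM. Laptm5 (chr4:130913125-130936141), a lysosomal membrane protein of blood cells, was at 31.7 and 35.7 CPM against 88.2 and 87.5 CPM. Lgals3 (chr14:47367751-47386160), the lectin galectin-3, was at 23.7 and 23.9 CPM against 56.8 and 69.1 CPM. All 4 were higher in control 2 than in either DM+SGLT2i library, at 93.9, 93.1, 133 and 126 CPM in the same order, so the treated libraries lay inside the range of the 3 controls. In whole tissue, more cells of a type and more RNA per cell cannot be told apart. The secreted partner of the galectins, Lgals3bp (chr11:118392751-118402092), showed the same order of libraries, with 48.2 and 55.2 CPM in controls 8 and 9, 222 and 198 CPM in DM+SGLT2i and 364 CPM in control 2. Their log2 differences from controls 8 and 9 lay between 1.37 (Ctss and Laptm5) and 2.01 (Lgals3bp), and those from all 3 controls between 0.46 (Ctss) and 1.08 (Lgals3bp).

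Col1a1 was the called gene of the interstitial matrix list, and Mmp2 and Sulf2, which are on no list, act on the matrix as well. Col1a1 (chr11:94936224-94953042), the main chain of type I collagen, was at 23.3 and 22.4 CPM in controls 8 and 9, 114 and 81.9 CPM in DM+SGLT2i and 168 CPM in control 2. Mmp2 (chr8:92827291-92853420), a gelatinase, was at 4.44 and 5.21 CPM, 20.7 and 20.3 CPM, and 39.2 CPM in the same order. Sulf2 (chr2:166073089-166155663), which trims heparan sulfate, was at 24.8 and 21.6 CPM in controls 8 and 9 and at 90.8 and 77.6 CPM in DM+SGLT2i, with control 2 between them at 82.2 CPM. Their log2 differences from controls 8 and 9 were 2.06 ± 0.18, 1.98 ± 0.16 and 1.84 ± 0.16, and from all 3 controls 1.11 ± 0.84, 1.015 ± 0.86 and 1.23 ± 0.55. The last gene that rose was Acsf2 (chr11:94557102-94601871), a mitochondrial acyl-CoA synthetase, from 29.4 and 27.6 CPM to 104 and 81.9 CPM, with 71.4 CPM in control 2. Both DM+SGLT2i libraries lay above all 3 controls for Acsf2, with log2 differences of 1.68 ± 0.16 from controls 8 and 9 and 1.24 ± 0.41 from all 3.

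The 2 genes that fell were Sugct and 1600010M07Rik. Sugct (chr13:16857472-17695553), which attaches coenzyme A to glutarate in the breakdown of lysine, was at 138 and 146 CPM in controls 8 and 9 and at 54.3 and 49.1 CPM in DM+SGLT2i, a log2 difference of -1.45 ± 0.12 (limma adjusted p = 0.045). Control 2 was lower still, at 31.7 CPM, and the difference from all 3 controls was -0.74 ± 0.63. The noncoding 1600010M07Rik (chr7:109998376-110151202) was at 11.1 and 11.5 CPM in controls 8 and 9, 3.23 and 3.22 CPM in DM+SGLT2i and 5.33 CPM in control 2, so that both DM+SGLT2i libraries lay below every control. Its log2 differences were -1.66 ± 0.16 from controls 8 and 9 and -1.33 ± 0.34 from all 3. It runs against Ipo7, Zfp143 and Wee1 on the other strand. How the reads were assigned to strands is not given in the sources used here, and reads of overlapping genes may be mixed.

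**Figure D1:**
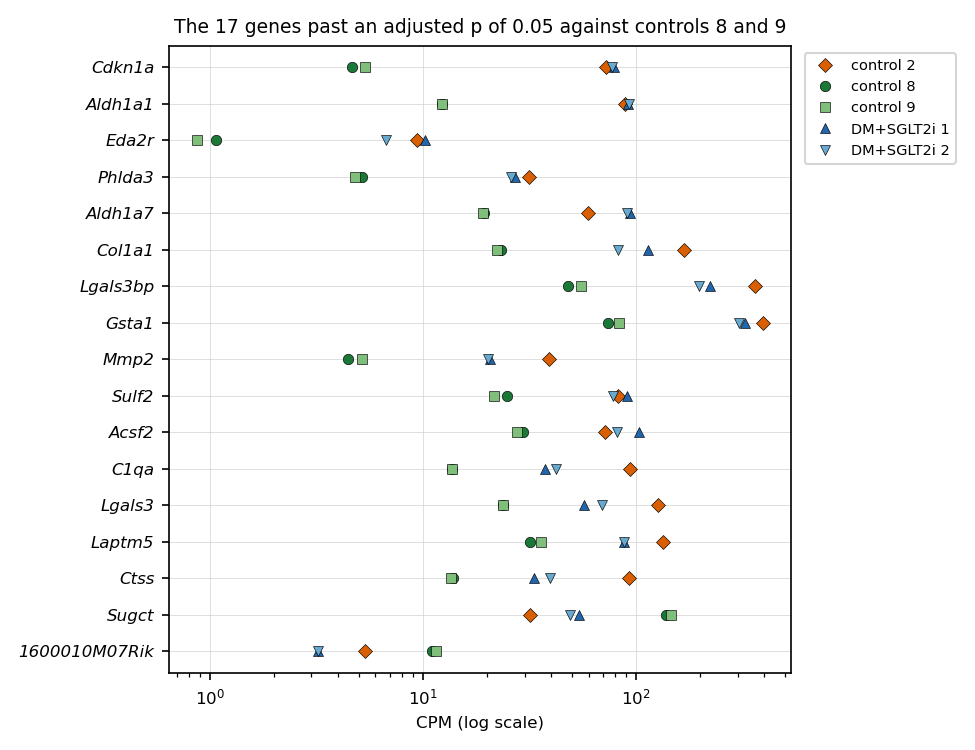
CPM (log scale) of the 17 genes past an adjusted p of 0.05 in limma against controls 8 and 9, with 1 symbol for each of the 5 libraries. Controls 8 and 9 lie together, and control 2 (diamond) lies on the side of the DM+SGLT2i libraries (triangles) in all 17 rows, as for Cdkn1a at 72.7 CPM.

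Marker genes were grouped by nephron segment and cell type. Each list is given by the median log2 difference of its tested members, beside a median over all tested genes of -0.01 against all 3 controls and -0.02 against controls 8 and 9. Counts at the unadjusted threshold are read beside the shares over all tested genes, 8.73% higher and 9.14% lower against controls 8 and 9 and 0.665% and 0.415% against all 3. Podocyte genes had small medians of 0.18 and 0.21, with 0 of 14 past even the unadjusted threshold in either comparison. Most leaned upward, with 12 of 14 differences above 0 in both comparisons, beside 6602 and 6616 of 13976 tested genes. Both treated libraries lay above controls 8 and 9 for 7 of the 14 and below them for 1, beside 28.2% and 33.5% of all tested genes. Nphs1 (nephrin) was at 35.7 and 28.9 CPM in DM+SGLT2i against 22.05, 35.2 and 28.4 CPM in controls 2, 8 and 9, and the groups overlapped.

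For the early proximal tubule the sign of the median depended on the choice of controls. The 20 genes of this part had a median log2 difference of 0.08 against all 3 controls and -0.33 against controls 8 and 9, and 0 of 20 passed the unadjusted threshold in either comparison. Slc34a1, the main sodium-phosphate cotransporter, was at 2841, 8363 and 8095.5 CPM in controls 2, 8 and 9 and at 5565.5 and 5233 CPM in DM+SGLT2i. Lrp2 (megalin), the receptor for filtered proteins, was at 1258, 3597 and 2292.5 CPM in the controls and at 1950.5 and 1799 CPM in DM+SGLT2i. Both treated libraries thus lay between control 2 and the other controls for these 2 genes. For the 10 late genes the medians were -0.01 and -0.42. The organic anion transporter Slc22a7 was at 10.8, 134 and 121 CPM in the controls and at 40.7 and 71.4 CPM in DM+SGLT2i, and the amino acid transporter Slc7a13 at 238, 946 and 912 CPM against 363 and 629 CPM. Against controls 8 and 9, 3 of the 10 late genes were lower and 1 was higher at the unadjusted threshold. Control 2 had the lowest proximal tubule medians of these 3 libraries, -0.98 for the early and -1.72 for the late genes relative to controls 8 and 9, while DM+SGLT2i 1 and 2 were at -0.23 and -0.39 (early) and at -0.71 and -0.23 (late).

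The 6 thin limb genes had medians of 0.53 and 1.16 against all 3 controls and against controls 8 and 9, with 0 past the unadjusted threshold. In the thick ascending limb, medians were 0.29 and 0.57, and 3 of 16 genes were higher than in controls 8 and 9 at the unadjusted threshold. Among them was Kcnj1, the potassium channel ROMK, at 416, 128 and 124 CPM in the controls and 209 and 425 CPM in DM+SGLT2i. Umod (uromodulin) was at 3013 and 4064 CPM against 3416.5, 2957 and 2534 CPM and overlapped the controls. The 2 macula densa genes tested, Nos1 and Pappa2, had medians of -0.19 and -0.05. In the distal convoluted and connecting tubule, medians were 0.36 and 0.30, and 2 of 13 genes passed that threshold. These were Calb1, the calcium buffer calbindin, at 788 and 957 CPM against 1150, 317 and 240 CPM, and the calcium channel Trpv5, at 38.4 and 50.1 CPM against 53.1, 18.7 and 13.7 CPM. The magnesium channel Trpm6 was above all 3 controls, at 24.3 and 28.5 CPM against 21.4, 13.3 and 11.3 CPM.

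In the collecting duct, principal cell genes had medians of 0.31 and 0.67, and 7 of 16 were higher than in controls 8 and 9 at the unadjusted threshold. Aqp2, the water channel that vasopressin controls, was at 419, 188 and 199 CPM in the controls and differed between the treated mice, at 197 and 477 CPM. Gata3, a transcription factor of the duct, was at 27.2 and 23.9 CPM against 26.9, 14.5 and 14.4 CPM. Intercalated cell genes, which secrete acid or base, had medians of 0.04 and 0.24 with 0 of 16 past the threshold. Relative to controls 8 and 9, DM+SGLT2i 2 had larger medians than DM+SGLT2i 1 for thin limb (1.73 and 0.72), thick limb (0.70 and 0.26) and principal cell genes (0.91 and 0.39), and control 2 had 1.96, 0.75 and 1.22. Of the 17 endothelial genes, 4 were higher than controls 8 and 9 and 1 was higher than all 3 controls at the unadjusted threshold. This was Cdh5, the junction protein VE-cadherin, at 67.6 and 60.9 CPM against 53.1, 38.8 and 40.3 CPM.

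**Figure D2:**
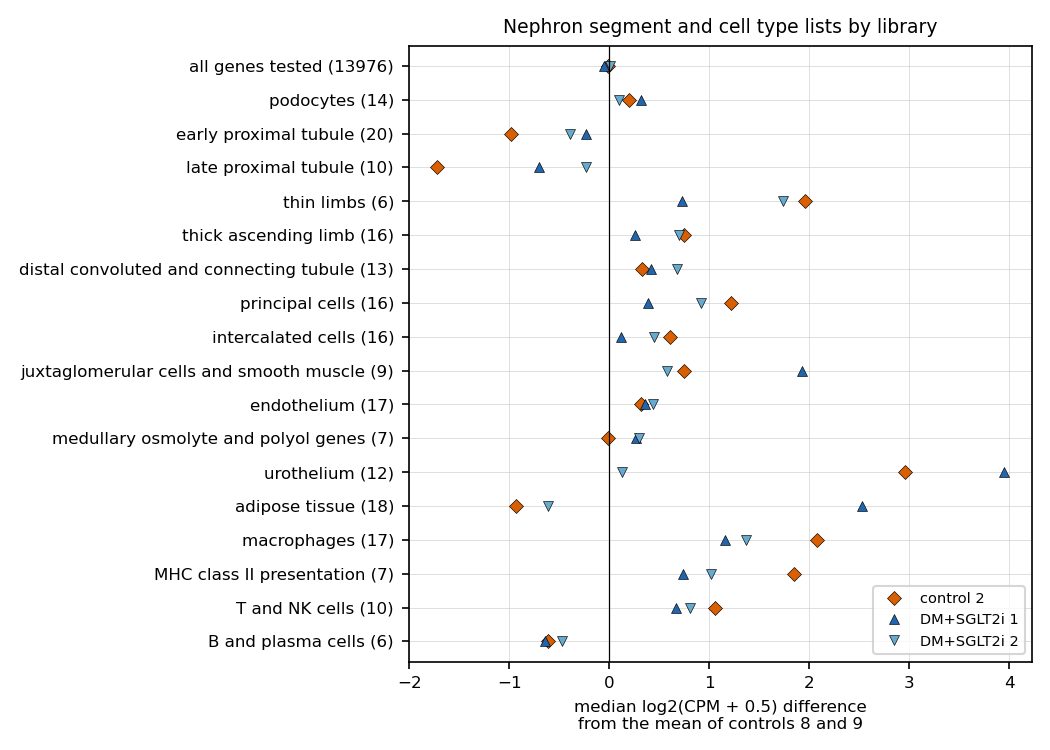
Median log2(CPM + 0.5) difference of each nephron segment or cell type list from the mean of controls 8 and 9, for control 2 and both DM+SGLT2i libraries, with the number of tested genes in brackets. Proximal tubule lists lie left of 0 and most other lists right of it. Control 2 is farthest out for the proximal tubule, thin limb, principal cell, macrophage and MHC class II lists, among others, but not for all lists. The urothelium, smooth muscle and adipose tissue lists separate DM+SGLT2i 1 from DM+SGLT2i 2.

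The transcript of the drug target did not differ beyond the spread. Slc5a2 was at 169, 748 and 664 CPM in controls 2, 8 and 9 and at 509 and 479 CPM in DM+SGLT2i, so the treated libraries lay inside the control range. Its log2 difference was 0.17 ± 0.76 against all 3 controls, although the ratio of the mean levels was 0.937, and -0.51 ± 0.54 against controls 8 and 9, so that its sign depended on control 2 and on the scale. Slc5a1 was at 188, 82.7 and 70.2 CPM in the controls and at 144 and 148 CPM in DM+SGLT2i. Against controls 8 and 9 its log2 difference was 0.93 ± 0.21 (limma adjusted p = 0.13), and against all 3 it was 0.50 ± 0.42. Slc5a10, a transporter of mannose and fructose, was at 545 and 524 CPM against 709, 226 and 199 CPM. Of 12 glucose transporter genes, 3 were higher than controls 8 and 9 at the unadjusted threshold and 0 were past it against all 3 controls.

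Of 26 fatty acid oxidation genes, 5 lay above every control, where 5.67% of all tested genes did. The 7 ketone body genes had medians of 0.01 against all 3 controls and -0.11 against controls 8 and 9, with 1 higher and 1 lower in the latter at the unadjusted threshold, and 2 lay above every control. One of these was Slc16a1, the lactate and ketone carrier MCT1, named here after its values were seen. It was at 59.3 and 55.5 CPM in DM+SGLT2i against 25.4, 24.4 and 24.6 CPM in controls 2, 8 and 9, a pattern in which control 2 did not stand apart. Acot2, a mitochondrial thioesterase, was at 98.3 and 93.3 CPM against 80.6, 49.9 and 40.1 CPM. The peroxisomal Acnat2, on no list, which conjugates fatty acids with amino acids, was at 139 CPM in both treated libraries against 41.0, 64.5 and 55.7 CPM. The fatty acid hydroxylase Cyp4a14 had a wide range, at 581 and 470 CPM in DM+SGLT2i and 36.5 and 12.4 CPM in controls 8 and 9, but 957 CPM in control 2. Over the list, 6 of 26 fatty acid oxidation genes were higher than controls 8 and 9 at the unadjusted threshold, 1 was higher than all 3 controls, and the medians were 0.13 and 0.10.

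Other routes of energy metabolism were close to the background when all controls were used. Glycolysis genes had medians of 0.18 against all 3 controls and 0.44 against controls 8 and 9, where 5 of 16 passed the unadjusted threshold upward. Pfkp, a phosphofructokinase, was at 87.1 and 142 CPM against 136, 36.1 and 35.4 CPM, and Pkm (pyruvate kinase) at 540 and 763 CPM against 906, 252 and 239 CPM. The 7 gluconeogenesis genes had medians of 0.16 and 0.09. Pck1, the rate-limiting enzyme of that pathway, was above all 3 controls at 2427 and 2043 CPM against 844, 1196 and 1870.5 CPM. Oxidative phosphorylation and cytosolic ribosomal protein genes, 74 of each, differed between the 2 DM+SGLT2i libraries. Relative to controls 8 and 9 their medians were 0.62 and 0.69 in control 2, -0.05 and 0.00 in DM+SGLT2i 1, and 0.46 and 0.44 in DM+SGLT2i 2.

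Across 34 p53 targets, 14 were higher than controls 8 and 9 at the unadjusted threshold (8.73% of all tested genes) and 0 were lower, with 3 past the adjusted one (Cdkn1a, Phlda3 and Eda2r). Against all 3 controls 5 of the 34 passed the unadjusted threshold, all upward, and 8 had both DM+SGLT2i libraries above every control, where 5.67% of all tested genes did. The list's medians were modest, 0.24 and 0.22. Mdm2, the ubiquitin ligase that degrades p53, was at 59.3 and 47.3 CPM in DM+SGLT2i against 41.2, 37.5 and 39.1 CPM in controls 2, 8 and 9. Zmat3, Aen and Trp53inp1 were picked from the remaining list after their values were seen. Zmat3, an RNA-binding protein, was at 47.8 and 50.8 CPM against 42.3, 26.9 and 23.9 CPM, and Aen, a nuclease, at 39.6 and 39.0 CPM against 31.8, 24.1 and 22.3 CPM. Trp53inp1, a cofactor of p53, was at 96.2 and 61.3 CPM against 59.6, 42.7 and 45.2 CPM. In these 4 genes control 2 lay above controls 8 and 9 and below both treated libraries.

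Division genes were also higher than in controls 8 and 9, beside the high p21 transcript. Of 25 cell cycle and replication genes, 13 passed the unadjusted threshold upward and 0 downward, beside 8.73% and 9.14% of all tested genes, with a median of 0.56, and against all 3 controls 0 passed and the median was 0.30. Mki67, the proliferation marker Ki-67, was at 7.91 and 5.87 CPM in DM+SGLT2i, 6.34 CPM in control 2 and 2.72 and 3.08 CPM in controls 8 and 9. Mcm3, a part of the replicative helicase, was at 8.32 and 8.31 CPM against 12.8, 4.13 and 4.08 CPM. Relative to controls 8 and 9, the median of the list was 1.011 in control 2, 0.70 in DM+SGLT2i 1 and 0.58 in DM+SGLT2i 2.

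Many immune, interferon, injury and matrix genes were higher than in controls 8 and 9. At the unadjusted threshold, which 8.73% of all tested genes passed upward, 16 of 17 macrophage genes, 15 of 19 interferon-stimulated genes, 6 of 7 genes of MHC class II presentation and 5 of 10 genes of T and NK cells were higher, and 0 were lower. The same held for 15 of 20 tubular injury genes and 11 of 19 genes of the interstitial matrix. Chemokines and cytokines were mixed, with 7 of 20 higher and 2 lower, and B and plasma cell genes had a median of -0.45 with 0 of 6 higher and 1 lower. Medians were 1.28 for macrophages, 1.15 for interferon-stimulated genes, 0.87 for MHC class II, 0.67 for T and NK cells, 1.20 for tubular injury and 1.15 for matrix. Against all 3 controls the medians were 0.47, 0.42, 0.25, 0.28, 0.77 and 0.53 in the same order, and of all these genes 1, the macrophage scavenger receptor Cd163, passed the unadjusted threshold. Cd163 was at 3.07 and 1.88 CPM in DM+SGLT2i against 1.47, 0.168 and 0.641 CPM in controls 2, 8 and 9.

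Control 2 exceeded the treated mice in the macrophage, MHC class II, T and NK cell, interferon, injury and matrix lists. Relative to controls 8 and 9 its medians were 2.08 for macrophages, 2.16 for interferon-stimulated genes, 1.74 for injury and 1.79 for matrix, and the highest medians among the treated libraries were 1.36, 1.39, 1.37 and 1.22. Havcr1, the injury marker KIM-1, was at 16.9 and 10.4 CPM in DM+SGLT2i, 29.5 CPM in control 2 and 1.98 and 1.84 CPM in controls 8 and 9. Lcn2, the injury marker NGAL, was at 11.6 and 25.9 CPM, 74.9 CPM, and 0.926 and 0.983 CPM in the same order. The complement component C3 was at 224 and 94.1 CPM, 345 CPM, and 15.9 and 16.3 CPM. Irf7, a master regulator of interferon genes, was at 33.7 and 35.2 CPM, 110 CPM, and 9.12 and 11.2 CPM. In all 4 genes the treated libraries lay inside the range of the 3 controls. RNAs retained in the nucleus differed among the same libraries, and their part in these results was not tested. All 3 that were tested were lower than in controls 8 and 9 at the unadjusted threshold, with medians of -1.45 and, against all 3 controls, -0.75, and relative to controls 8 and 9 control 2 was at -2.08 and DM+SGLT2i 1 and 2 at -1.010 and -1.88. Malat1 was at 111 and 38.3 CPM in DM+SGLT2i, 47.5 CPM in control 2 and 292 and 390 CPM in controls 8 and 9. The 4 Y-linked genes were likewise lower than in controls 8 and 9 at that threshold, with a median of -0.43, and -0.19 against all 3 controls. Fn1 (fibronectin) was at 140 and 83.1 CPM against 104 CPM in control 2 and 28.3 and 41.6 CPM in controls 8 and 9. Col4a1, a chain of basement membrane collagen, was above all 3 controls, at 533 and 468 CPM against 464, 244 and 215 CPM. Basement membrane genes had medians of 0.25 and 0.31, with 5 of 20 higher and 1 lower than controls 8 and 9. The cytokine Il34, which keeps macrophages alive, went the other way and was below all 3 controls, at 10.9 and 16.9 CPM against 20.9, 25.8 and 33.0 CPM.

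**Figure D3:**
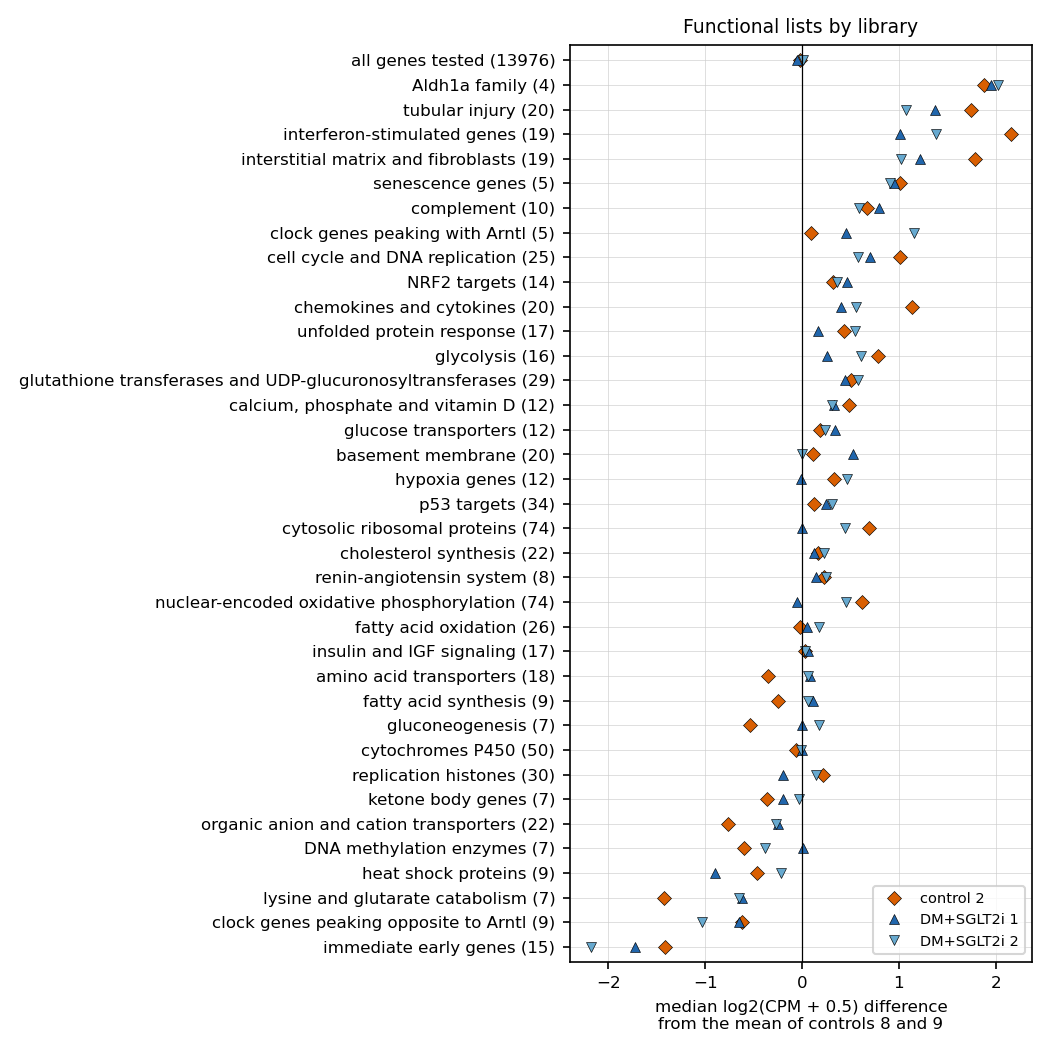
Median log2(CPM + 0.5) difference of each functional list from the mean of controls 8 and 9, for control 2 and both DM+SGLT2i libraries, ordered by the difference of DM+SGLT2i from controls 8 and 9. Aldh1a family, tubular injury, interferon and matrix genes lie farthest right and immediate early genes farthest left, and control 2 lies on the side of the treated libraries for most lists but near 0 for the genes that peak with Arntl.

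Several clock genes lay outside all 3 controls, control 2 included. The circadian clock of every cell is a loop in which Arntl (BMAL1) and its partners Clock or Npas2 drive the Per and Cry repressors and the output factors Dbp, Tef and Hlf through E-boxes, while ROR and REV-ERB receptors set Arntl itself. Arntl was at 5.07 and 8.69 CPM in DM+SGLT2i 1 and 2 against 1.21, 1.77 and 1.62 CPM in controls 2, 8 and 9, the log2 difference being 1.82 ± 0.47 against all 3 controls and 1.70 ± 0.51 against controls 8 and 9. Npas2 was at 6.65 and 7.24 CPM against 1.61, 3.37 and 2.46 CPM. Some genes that peak at the opposite time lay below every control in the same 2 libraries. Dbp was at 106 and 66.6 CPM against 168, 225 and 220 CPM, and Per2 was at 15.9 and 11.8 CPM against 16.1, 34.1 and 47.3 CPM. The groups did not overlap for these 4 genes, though for Per2 the gap to control 2 was small. None passed the adjusted test in either comparison.

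By list, 3 of the 5 genes that peak with Arntl lay above all 3 controls (Arntl, Npas2 and Nfil3) and 3 of the 9 that peak opposite to it lay below (Per2, Dbp and Nr1d2), where 5.67% and 6.59% of all tested genes did so. The medians were 0.74 and -0.57 against all 3 controls and 0.80 and -0.78 against controls 8 and 9. Nr1d1, which encodes REV-ERB alpha, split the treated mice, at 194 and 93.4 CPM against 122, 138 and 129 CPM. The 300 bases around the start of these genes, from 250 before to 50 after it, were read from RefSeq on GRCm38.p6. They were searched on both strands for the E-box CACGTG, the core AGGTCA of the ROR element and the D-box TTATGTAA. This core alone is called ROR element below, and the bases that flank it in a full element were not required. These motifs stand in 7.15%, 16.3% and 0.938% of the 32851 windows searched, which do not cover every chromosome. A gene was counted when any of its windows held the motif, so gene counts and window shares are unlike measures. ROR elements were found in 3 of the 5 genes that peak with Arntl (Arntl, Clock and Nfil3). They were also found in 2 of the 8 opposite genes with a window (Nr1d2 and Per1). E-boxes were found in 4 of these 8 genes (Bhlhe41, Ciart, Per1 and Tef) and in 1 of the 5 that peak with Arntl (Cry1). A D-box was found in none of the genes of either list. A match is a description of these letters, and binding was not measured. One window is shown for each of 2 genes on either side of the loop, with the motif in capitals.
Arntl, chr7:113207261-113207560, plus strand, ROR element: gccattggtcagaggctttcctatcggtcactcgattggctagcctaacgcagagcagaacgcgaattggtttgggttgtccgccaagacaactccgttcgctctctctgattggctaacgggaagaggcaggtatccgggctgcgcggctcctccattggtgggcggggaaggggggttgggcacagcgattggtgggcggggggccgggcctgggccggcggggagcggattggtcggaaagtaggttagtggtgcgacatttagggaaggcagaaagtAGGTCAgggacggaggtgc
Nfil3, chr13:52980990-52981289, minus strand, ROR element on the opposite strand: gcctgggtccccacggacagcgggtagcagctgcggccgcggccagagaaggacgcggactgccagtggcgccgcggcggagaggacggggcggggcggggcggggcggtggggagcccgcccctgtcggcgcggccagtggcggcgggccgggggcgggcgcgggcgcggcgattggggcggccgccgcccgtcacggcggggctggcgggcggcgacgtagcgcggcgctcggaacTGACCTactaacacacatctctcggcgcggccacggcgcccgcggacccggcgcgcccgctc
Tef, chr15:81811164-81811463, plus strand, E-box: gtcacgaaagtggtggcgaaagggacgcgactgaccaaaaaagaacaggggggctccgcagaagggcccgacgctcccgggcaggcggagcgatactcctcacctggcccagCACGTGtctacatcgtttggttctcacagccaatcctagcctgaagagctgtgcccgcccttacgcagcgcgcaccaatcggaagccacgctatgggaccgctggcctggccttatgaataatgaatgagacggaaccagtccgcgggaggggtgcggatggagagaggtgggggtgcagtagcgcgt
Ciart, chr3:95882179-95882478, minus strand, E-boxes: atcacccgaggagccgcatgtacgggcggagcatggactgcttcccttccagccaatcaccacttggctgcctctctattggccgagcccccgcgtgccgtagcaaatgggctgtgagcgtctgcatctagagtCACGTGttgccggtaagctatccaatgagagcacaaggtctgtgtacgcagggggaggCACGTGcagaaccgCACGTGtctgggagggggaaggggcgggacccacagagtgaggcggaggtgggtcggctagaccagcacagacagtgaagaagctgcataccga

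The shown window of Arntl holds 1 ROR element and that of Ciart holds 3 E-boxes. Beside these sequences, Nfil3 was at 4.48 and 7.61 CPM in DM+SGLT2i against 3.63, 3.31 and 2.99 CPM in controls 2, 8 and 9. Tef was at 270 and 197 CPM against 258, 400 and 393 CPM, and Ciart at 7.85 and 2.55 CPM against 5.88, 12.4 and 15.6 CPM. For these 2 output genes DM+SGLT2i 1 overlapped control 2 and DM+SGLT2i 2 did not. Nfil3 and Ciart are named for their windows.

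The immediate early genes, which cells switch on within minutes of a stimulus, had the lowest list median, -1.44 against all 3 controls and -1.91 against controls 8 and 9. Much of this came from control 9. Fos was at 331 CPM in control 9 but at 5.02 and 5.43 CPM in controls 2 and 8, and at 2.09 and 1.75 CPM in DM+SGLT2i. Egr1 was at 1166 CPM in control 9, 33.5 and 33.7 CPM in controls 2 and 8, and 13.3 and 11.9 CPM in DM+SGLT2i. Jun was at 563 CPM in control 9, 49.4 and 65.5 CPM in controls 2 and 8, and 36.3 and 41.4 CPM in DM+SGLT2i. All 3 genes were below every control in both treated libraries, as were 5 of 15 in the list, beside 6.59% of all tested genes. Without control 9 the log2 difference of Fos against the remaining controls went from -3.19 to -1.24, that of Egr1 from -3.09 to -1.39 and that of Jun from -1.65 to -0.55. Heat shock genes showed the same library, with Hspa1a at 621 CPM in control 9 against 88.5 and 42.1 CPM in controls 2 and 8 and 61.8 and 92.5 CPM in DM+SGLT2i.

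Antioxidant and detoxification genes were partly higher than in all controls. NRF2 is a transcription factor that switches on such genes through antioxidant response elements. Of 14 NRF2 targets, 6 lay above all 3 controls and 0 below (5.67% and 6.59% of all tested genes). Against all 3 controls 3 were higher at the unadjusted threshold (0.665% of all tested genes), against controls 8 and 9 there were 6 higher and 1 lower, and the medians were 0.30 and 0.48. Abcc4, an exporter of organic anions, was at 219 and 159 CPM against 103, 93.6 and 62.2 CPM in controls 2, 8 and 9, a log2 difference of 1.14 ± 0.26 against all 3 controls and 1.28 ± 0.25 against controls 8 and 9 (limma adjusted p = 0.11 for the latter). Nqo1, a quinone reductase, was at 159 and 169 CPM against 123, 82.6 and 74.7 CPM. Hmox1 (heme oxygenase) was at 51.0 and 62.3 CPM against 47.0, 33.4 and 39.4 CPM, and Pgd, an enzyme of the pentose phosphate pathway, at 218 and 200 CPM against 168, 146 and 126 CPM. The core TGACNNNGC of the antioxidant response element stands in 12.4% of the same 32851 windows. It was found in 7 of the 12 NRF2 targets with a window, which is again a count by gene and not by window. A window of Abcc4 is shown with that core, on the strand opposite to the gene, in capitals. Another window of Abcc4 (chr14:118676882-118677181), not shown, holds the core on the gene's own strand.
Abcc4, chr14:118706170-118706469, minus strand: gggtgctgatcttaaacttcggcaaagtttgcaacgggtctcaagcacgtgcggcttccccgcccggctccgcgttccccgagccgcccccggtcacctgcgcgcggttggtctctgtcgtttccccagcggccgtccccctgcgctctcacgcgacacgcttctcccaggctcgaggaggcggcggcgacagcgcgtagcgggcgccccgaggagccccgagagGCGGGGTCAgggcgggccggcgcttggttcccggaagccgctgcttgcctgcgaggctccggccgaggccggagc

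Glutathione transferases and glucuronosyltransferases were mixed, with 12 of 29 higher and 2 lower than controls 8 and 9 at the unadjusted threshold and medians of 0.42 and, against all 3 controls, 0.30. Gsta2, a close copy of Gsta1, was at 610 and 601 CPM against 715, 159 and 174 CPM in controls 2, 8 and 9, and Gstm1 was above all 3 controls, at 1233 and 964 CPM against 869, 459 and 442 CPM. Ugt1a10 was at 57.0 and 39.5 CPM in DM+SGLT2i, 3.03 and 0.983 CPM in controls 8 and 9 and 240 CPM in control 2, and its reads could be shared with other Ugt1a genes. Cytochromes P450 had medians of -0.04 and 0.00, with 14 of 50 higher and 2 lower. Organic ion transporters had medians of -0.25 and 0.01, with 5 of 22 lower and 1 higher. The steepest of these was Slco1a1, an anion carrier of the male proximal tubule, at 35.1 and 55.6 CPM in DM+SGLT2i, 297 and 390 CPM in controls 8 and 9 and 2.69 CPM in control 2. The lysine pathway that contains Sugct had a median of -0.63 against controls 8 and 9, with 3 of 7 genes lower, and -0.16 against all 3 controls.

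Across all tested genes, 793 (5.67%) lay above and 921 (6.59%) lay below all 3 controls in both treated libraries. The 8 with the largest difference above, among genes of at least 5 CPM in the higher group, were Cdkn1a, Ighg1, Aldh1a1, Arntl, Myh11, Aldh1a7, Slc38a3 and Slc1a3. Ighg1, an immunoglobulin heavy chain, was at 20.9 and 10.6 CPM against 3.21, 4.25 and 1.004 CPM in controls 2, 8 and 9, while the 6 other genes of B and plasma cells that were tested had a median of -0.32. Slc38a3, the glutamine transporter of the proximal tubule, was at 223 and 180 CPM against 147, 55.8 and 42.1 CPM. The 8 with the largest difference below were Fos, Egr1, Ccn1, Inmt, Ier2, Angptl7, Jun and Gm853. Inmt, a methyltransferase of indoles, was at 200 and 175 CPM against 279, 858 and 1032 CPM. Gm853 was at 12.6 and 19.1 CPM against 29.3, 54.4 and 49.1 CPM, and its log2 difference of -1.43 ± 0.30 had the smallest SE of these 8. Next to them in this order, Nat8f6 and Nat8f3, acetyltransferase genes of 1 family, were at 50.4 and 74.5 CPM against 127, 168 and 211 CPM and at 43.9 and 64.2 CPM against 98.5, 146 and 174 CPM.

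**Figure D4:**
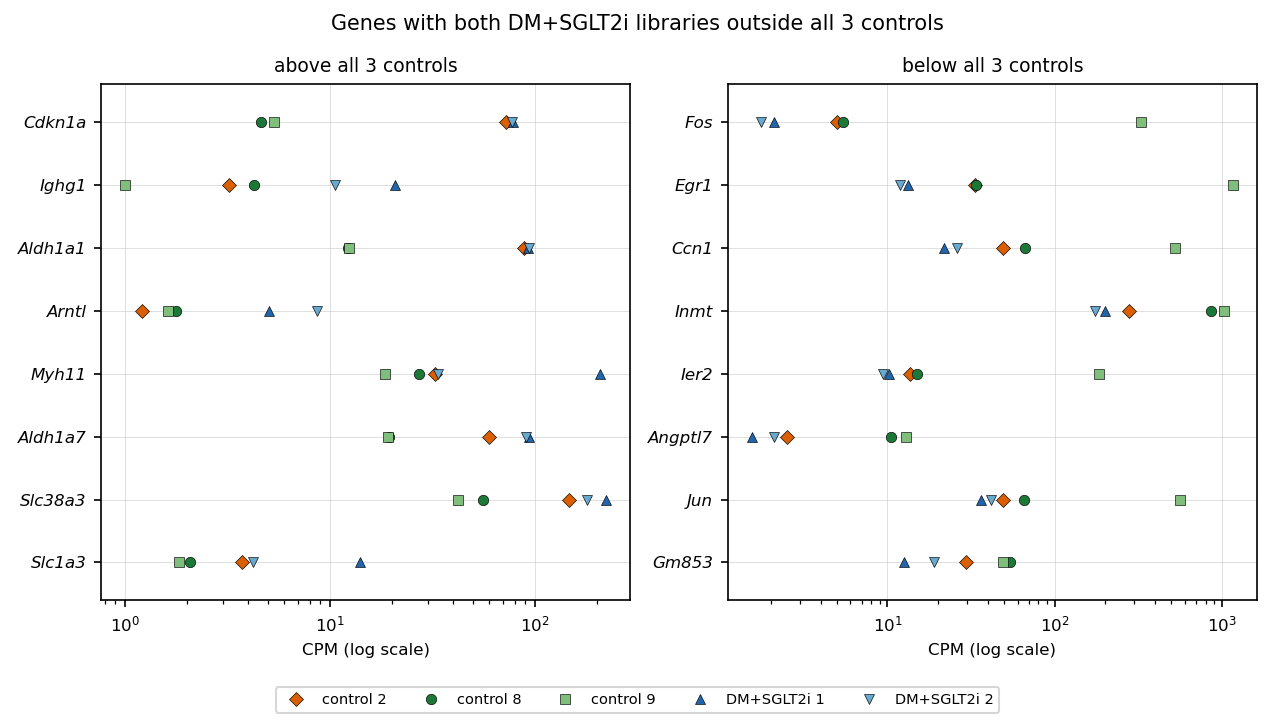
CPM (log scale) of the 8 genes with the largest log2 difference above (left) and below (right) all 3 controls among genes of at least 5 CPM in the higher group, with 1 symbol per library. The triangles of both DM+SGLT2i libraries lie outside the 3 control symbols in every row, narrowly so for Cdkn1a, Aldh1a1 and the lower of the treated libraries in Myh11 and Slc1a3, and control 9 lies far right for Fos, Egr1, Ccn1, Ier2 and Jun.

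Of 12 genes linked to low oxygen, 3 lay above every control, Ndrg1 and Epas1 among them, beside 5.67% of all tested genes. Ndrg1, a stress-induced gene of the tubule, was at 3482.5 and 3341 CPM against 1456, 1714 and 1747 CPM in controls 2, 8 and 9, a log2 difference of 1.06 ± 0.30 against all 3 controls and 0.98 ± 0.31 against controls 8 and 9. Epas1, which encodes the oxygen-regulated factor HIF-2 alpha, was at 262 and 213 CPM against 169, 155 and 142 CPM. The list as a whole had medians of 0.02 and 0.24, with 3 of 12 genes higher and 2 lower than controls 8 and 9. Vegfa, the endothelial growth factor, was among the lower ones, at 121 and 90.1 CPM against 64.8 CPM in control 2 and 184 and 244 CPM in controls 8 and 9. The amino acid transporter Slc43a2 was also above all 3 controls, at 450 and 387 CPM against 267, 263 and 216 CPM.

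DM+SGLT2i 1 differed from all other libraries in genes of adipose tissue. Over the 18 adipose genes tested, the summed level was 2777 CPM in DM+SGLT2i 1 and 843 CPM in DM+SGLT2i 2, against 561, 1526 and 1385 CPM in controls 2, 8 and 9. Cfd (adipsin) was at 687 CPM in DM+SGLT2i 1 and at 2.78 CPM in DM+SGLT2i 2, with 0.495, 17.2 and 4.62 CPM in the controls. Adipoq (adiponectin) was at 76.0 CPM in DM+SGLT2i 1, 0.361 CPM in DM+SGLT2i 2 and 0.165, 3.31 and 1.56 CPM in the controls. Car3, an abundant carbonic anhydrase of fat, was at 582 CPM in DM+SGLT2i 1, 9.20 CPM in DM+SGLT2i 2 and 6.93, 30.6 and 20.4 CPM in the controls. DM+SGLT2i 2 was thus within the control range for all 3 genes, and the group means of these genes describe 1 mouse. Plin1, which coats fat droplets, was at 46.4 CPM in DM+SGLT2i 1 against at most 3.18 CPM elsewhere, and Cidec, which enlarges them, at 85.4 CPM against at most 3.14 CPM. Cd36 and Lpl, which the kidney expresses as well, went the other way and were lower in both treated libraries than in controls 8 and 9, with Lpl at 293 and 228 CPM against 105, 748 and 638 CPM in controls 2, 8 and 9. The adipose genes Lep, Acvr1c, Ucp1 and Cidea were not tested here.

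The adipose list had median log2 differences of 1.19 against all 3 controls and 1.07 against controls 8 and 9, with 0 of 18 higher and, in the latter, 2 lower at the unadjusted threshold. Relative to controls 8 and 9 its median was 2.53 in DM+SGLT2i 1, -0.61 in DM+SGLT2i 2 and -0.93 in control 2. In total 23 genes were at least 4-fold higher in DM+SGLT2i 1 than in each of the other 4 libraries on CPM + 0.5, against 1 gene in DM+SGLT2i 2, 5 in control 2, 0 in control 8 and 25 in control 9. Besides adipose genes they included the smooth muscle genes Myh11 and Cnn1 and the keratin Krt5 of basal urothelium, the latter picked after its values were seen. Myh11 was at 207 CPM in DM+SGLT2i 1, 33.7 CPM in DM+SGLT2i 2 and 32.5, 27.2 and 18.6 CPM in the controls, so that its place among the genes above all 3 controls rests on 1 mouse. Acta2, smooth muscle actin, was at 212 and 67.2 CPM against 75.7, 23.1 and 39.1 CPM.

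Urothelial genes followed DM+SGLT2i 1 and control 2 together. The list's median relative to controls 8 and 9 was 3.94 in DM+SGLT2i 1, 2.95 in control 2 and 0.13 in DM+SGLT2i 2. The uroplakin Upk1a was at 37.8 and 2.31 CPM in DM+SGLT2i 1 and 2 against 20.7, 2.04 and 1.73 CPM in controls 2, 8 and 9. Krt19, a keratin of duct and urothelium, was at 43.9 and 9.01 CPM against 21.4, 2.25 and 2.07 CPM, and was higher than controls 8 and 9 in both treated mice. The share of fat, vessel wall or urothelium in the pieces of kidney was not measured, and the part of these cells in other results was not tested.

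**Figure D5:**
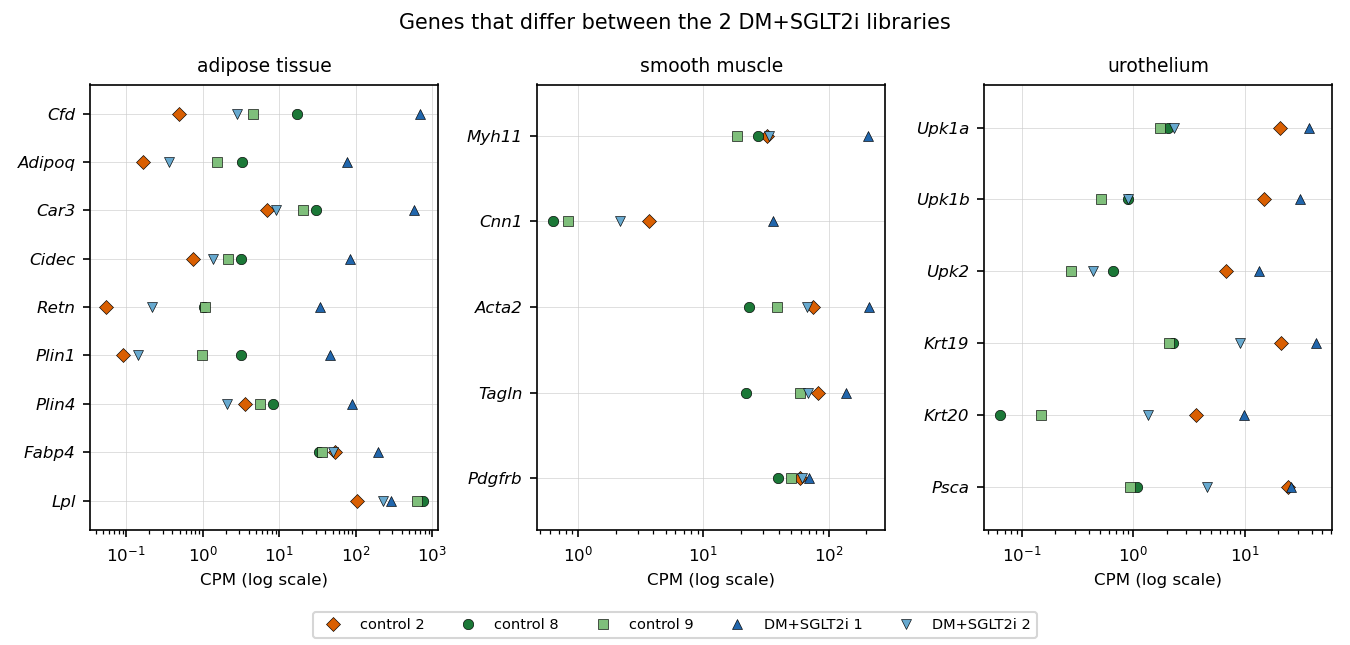
CPM (log scale) of adipose tissue, smooth muscle and urothelium genes, with 1 symbol for each of the 5 libraries. DM+SGLT2i 1 (upward triangle) stands far right for Cfd, Adipoq, Car3, Myh11 and Cnn1. For these genes DM+SGLT2i 2 lies among the controls, except for Myh11, where it lies just above them. Control 2 (diamond) lies beside DM+SGLT2i 1 in the urothelium panel.

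Without DM+SGLT2i 1 or without DM+SGLT2i 2, and also without control 8 or control 9, 0 genes passed the adjusted threshold against the remaining controls 8 and 9. In the 11 alternatives without single-library leave-outs, Aldh1a1, Phlda3 and Aldh1a7 always passed it, Lgals3bp passed in 10, Mmp2 in 9 and Sugct in 8. The remaining called genes passed it in 6 or 7, and Cdkn1a and Eda2r in 5.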

How the data were processed

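The authors deposited 1 table of log2 CPM after TMM scaling, with a prior of 2 reads, for 7 polyA libraries of whole renal tissue. The submitters' processing notes name bcl2fastq, FastQC, Trim Galore, STAR and edgeR with the build mm10, and versions are not given in the sources used here. CPM were recovered by undoing the logarithm and the prior, and reads came out whole for 100% of values within 0.01 of a read. In the 5 libraries compared, 1 read was worth 0.0181 to 0.0214 CPM. The planned design assumed CPM in the file, so the tests were run on the recovered CPM.

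Genes that reached 1 CPM in 2 or more of the 7 libraries entered the test, which was limma (version 3.58.1, under R 4.3.3, two-sided, moderated with a trend) on log2(CPM + 0.5), all 3 groups in 1 fit, with Benjamini-Hochberg adjustment at 0.05. A log2 difference on that scale understates the change of low genes. Errors are SE for differences and SD for levels. Controls are numbered 2, 8 and 9 and DM+SGLT2i libraries 1 and 2, as in the labels. The members and the 60 gene lists were chosen with earlier results of these data known, and no list was tested as a set. Genes were named by a fixed rule: all genes called against controls 8 and 9, the drug target and its relatives with Cdkn1a, Phlda3, Sugct and the adipose genes, the 10 largest differences in each direction outside all 3 controls at 5 CPM or more, and, per list, the first 3 members and up to 5 with the largest difference at an unadjusted p under 0.05. Others are said to be picked later. Some genes that the rule names are not reported here. The alternatives varied the pseudocount, filter, scaling, weights, trend, groups fitted and single libraries. Gene positions are from GENCODE M21 on GRCm38 and promoter windows from RefSeq GRCm38.p6. The fit was also run on simulated reads with known changes, drawn around the mean of controls 8 and 9. Control 2 did not stand apart in them, so that run cannot show how the fit handles these libraries.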

Additional observations from a re-analysis of the deposited data

How the results depend on the processing

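Against all 3 controls, 0 genes higher and 0 lower passed the adjusted threshold under every alternative that kept the libraries. The counts were 0 to 15 and 0 to 2 when single libraries were left out, the 15 and 2 arising without control 2. Array weights, which gave control 2 a weight of 0.17, lowered the smallest limma adjusted p from 0.9997 to 0.070. With these weights 1991 genes were higher and 2123 lower at the unadjusted threshold, beside 93 and 58 in the main fit. Against controls 8 and 9 (15 higher and 2 lower), the counts were 949 and 680 with only these groups fitted, 503 and 340 with array weights, 5 and 1 with a pseudocount of 2, 7 and 1 without the trend, 4 and 0 with voom and 3 and 0 with scaling by total counts. The split between higher and lower calls moved with these settings as well. The number lower was 1 without the filter and 1 with a filter of 5 CPM. Leaving out single libraries gave 0 to 968 higher and 0 to 694 lower. It gave 0 and 0 without control 8, control 9 or either DM+SGLT2i library, and 966 and 694 or 968 and 679 without a DM-22 library. Where 1 library remained in a group, it was assumed to vary like the others. The log2 difference of Slc5a2 against all 3 controls turned from 0.17 to -0.43 with array weights, and leaving out single libraries moved it between -0.51 (without control 2) and 0.56 (without control 8). The cause of these changes was not tested. What limits the number of calls was not tested. No paired analysis was possible because the controls carry the numbers 2, 8 and 9 and the DM+SGLT2i libraries 1 and 2, with only 1 number shared.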
